A study of Mus musculus with 23 samples.

Results

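Colon tumors of mice colonized with BSHhigh Bacteroides fragilis were compared with colon tumors of mice colonized with BSHlow B. fragilis after 12 weeks, across every gene with enough counts. The comparison held 7 of the 23 RNA-seq libraries of the series, 4 of BSHlow tumors and 3 of BSHhigh tumors, and its members were defined by tissue, strain and time. All 7 tumors came from C57BL/6 male Cdx2Apcf/w mice that were 6 to 8 weeks old at the start and ate a 60% high-fat diet (HFD). In both groups a Cre recombinase under the CDX2 promoter removed an Apc allele from the epithelium of the distal ileum, cecum and colon, and the study's methods describe an antibiotic treatment before the bacteria were given. The BSHlow strain was B. fragilis 638R, labelled bsh-, and carried an empty vector, while the BSHhigh strain, labelled bsh+, was 638R with the bsh gene of another B. fragilis strain. Beside the tumors stood 8 libraries of non-tumor colon of the same time point, 4 for each strain. The labels do not say that the libraries came from separate mice, so that p-values measure the spread between these libraries.

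Bile salt hydrolase (BSH) is a bacterial enzyme that removes the taurine or glycine from conjugated bile acids, the first step of their conversion to secondary bile acids in the gut. Bile acids act on receptors such as FXR, the vitamin D receptor and PXR, and can change epithelial growth and mucosal immunity. The colon epithelium renews itself from stem cells under WNT signals and matures into absorptive colonocytes, mucus-making goblet cells, enteroendocrine cells and tuft cells, and loss of APC keeps WNT signaling on, so that tumor cells mature less. Plasma cells beneath the epithelium make IgA, which the epithelium carries into the lumen.

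Levels are given as CPM, for which the expected counts per gene were scaled to each library's total times its TMM factor from edgeR. These factors, fitted over the 15 libraries of 12 weeks, were 1.08 to 1.19 in tumors and 0.84 to 0.93 in non-tumor tissue. Tumor levels are therefore lower, and non-tumor levels higher, than shares of the library totals would be. Log2 fold changes are of BSHhigh over BSHlow tumors with standard errors (SE). A gene was called changed if edgeR (quasi-likelihood) gave it an adjusted p-value under 0.05 and its log2 fold change was over 1 in size. Totals were between 15271869 and 17652495 counts in BSHlow and between 16470573 and 17903008 counts in BSHhigh tumors, so depth differed little between the groups. The headers of the BSHhigh tumor columns wrongly repeat names of BSHlow tumors. Their group was taken from the study's supplementary values of BSHhigh tumors, of which at least 1986 of 1996 compared were equal for each column. Their replicate numbers are unknown, so they are called replicates a, b and c.

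The tumors carried the marks of their model. Apc had between 9.68 and 13.8 CPM in BSHlow and between 13.8 and 31.5 CPM in BSHhigh tumors, against 95.9 to 211 CPM in non-tumor tissue. Its log2 fold change was 1.04 (SE 0.27, edgeR adjusted p = 0.14), which did not pass. The WNT targets Axin2, Nkd1 and Notum, which encode feedback inhibitors of the pathway, had at least 207, 290 and 164 CPM in every tumor and at most 34.8, 19.1 and 6.77 CPM in every non-tumor library. The epithelial marker Epcam had between 924 and 1398 CPM in the 7 tumors. The smooth muscle marker Des had at most 30.7 CPM in tumors and at least 219 CPM in non-tumor tissue, while Ms4a1 of B cells had at most 1.185 CPM in any tumor.

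Nearly all genes that passed the test were higher in BSHhigh than in BSHlow tumors, among them genes of absorptive colonocytes, goblet cells and antibody secretion. Of 15325 genes tested, 71 (0.463%) passed both thresholds with higher and 2 (0.0131%) with lower levels in BSHhigh tumors. At an unadjusted p under 0.05, 8.5% of genes were higher and 4.2% lower, or 4.72% and 0.77% with a log2 fold change over 1. The 71 held 10 immunoglobulin variable segments and 61 other genes, among them the goblet cell product Zg16, the colonocyte chloride exchanger Slc26a3, the antibody carrier Pigr, the chemokine Ccl28 and the oxidases Nox1 and Duox2. The 2 lower genes were Mal, which encodes a protein of apical membrane sorting, and Tmprss11b, a serine protease of squamous epithelia. The median of all tested genes was -0.03 on the log2 scale. In bulk tissue, more cells of a type cannot be told apart from more RNA of those genes per cell.

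**Figure D1:**
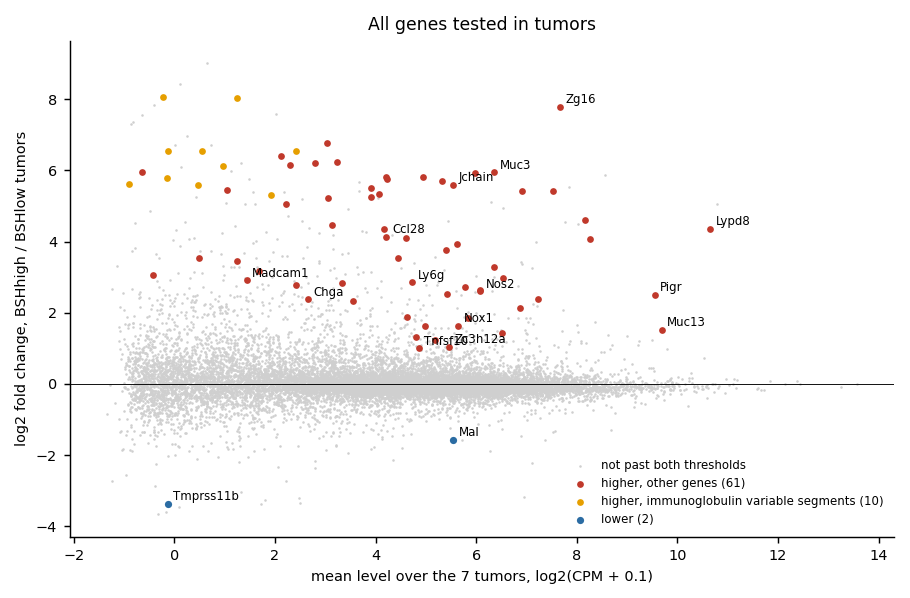
Log2 fold change of BSHhigh over BSHlow tumors (y axis) against the mean level over the 7 tumors (x axis, log2 of CPM + 0.1) for 15325 genes. Each point is a gene, and the 61 red, 10 orange and 2 blue points passed both thresholds; nearly all of these lie above 0, over the whole range of levels.

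The number of calls moved with single libraries. Without BSHlow tumor replicates 1, 2, 3 and 4 in turn, 0, 3, 0 and 0 genes were higher, and without BSHhigh tumor replicates a, b and c, 6, 1 and 234 were higher. Nox1 was called without BSHlow replicate 2, without replicate a and without replicate b. Zc3h12a was called without BSHlow replicate 2 and without replicate a, and Chga without BSHlow replicate 2. Without replicate a the other calls were Nos2, Ly6g, Zg16 and 2610528A11Rik. On the first principal component of the 7 tumors, which held 47.8% of the variance, replicates a, b and c had scores of 62.1, 31.9 and 17.3, and the BSHlow tumors had negative scores.

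Each group of genes is set below against all genes tested, of which 7.86% had every BSHhigh tumor above every BSHlow tumor and 4.22% had every BSHhigh tumor below. DESeq2, run on the same tumors with its own filter, called 575 genes higher (2.28% of 25240) and 49 lower (0.194%), or 2.47% in either direction. Its calls within lists are counted over the 15325 genes tested by edgeR, of which it called 515 higher and 46 lower.

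Absorptive colonocytes are the cells that take up salt, water and short-chain fatty acids. All 27 tested genes of the list had a positive log2 fold change, with a median of 3.38, and 20 had groups that did not overlap. For 1 of the 27, with at most 3 counts over the BSHlow tumors, the count filter fixed that sign in advance. Called higher were Slc26a3, Slc13a2, Slc5a8, Aqp8, Lypd8 and Sult1b1, 6 of 27 where 0.463% of all genes were. Of these, Slc13a2, Aqp8 and Slc26a3 had at most 5, 4 and 10 counts in any BSHlow tumor. They had enough counts to be tested only through the BSHhigh tumors, so their positive sign was fixed in advance too. Further such genes of the list were not counted, so that all 27 being positive is no result by itself. The summed level of the list was between 926 and 1580 CPM in BSHlow tumors and 12200, 6585 and 3106 CPM in BSHhigh tumors a, b and c, and none of them reached the 22820 to 34500 CPM of non-tumor tissue.

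Slc26a3, the chloride-bicarbonate exchanger of the surface epithelium, had 0.549, 0.334, 0 and 0.216 CPM in the BSHlow tumors and 42.6, 17.3 and 3.76 CPM in the BSHhigh tumors. The groups did not overlap, and the log2 fold change was 6.25 (SE 0.98, edgeR adjusted p = 0.0481). Slc13a2, a carrier of citrate and succinate, and Aqp8, a water channel, had log2 fold changes of 6.78 (SE 0.94, edgeR adjusted p = 0.0384) and 6.40 (SE 0.92, edgeR adjusted p = 0.0406). Slc5a8, which takes up butyrate, was higher by 5.35 on the log2 scale (SE 0.59, edgeR adjusted p = 0.0290), as was the sulfotransferase gene Sult1b1 by 5.75 (SE 0.85, edgeR adjusted p = 0.0421).

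Lypd8 (ENSMUSG00000013643.13, chromosome 11 of GRCm38, 58379043 to 58390728, plus strand) encodes a surface protein that keeps flagellated bacteria away from the colon epithelium. It had 310, 126, 160 and 88.3 CPM in BSHlow and 6211, 3272 and 1081 CPM in BSHhigh tumors. The lowest BSHhigh tumor was above the highest BSHlow tumor, with a log2 fold change of 4.36 (SE 0.65, edgeR adjusted p = 0.0421). Outside the list, the membrane mucin gene Muc3 rose from at most 6.20 CPM to 380, 130 and 52.3 CPM, a log2 fold change of 5.94 (SE 0.80, edgeR adjusted p = 0.0365). The proton pump Atp12a (5.92), the carboxylesterase Ces2e (5.82), the matrix protein Thbs4 (5.82), the protease Prss30 (5.51) and Btnl6, a butyrophilin-like gene of the gut epithelium (6.16), rose by the log2 fold changes given. So did 2610528A11Rik, which encodes a ligand of GPR15 (5.70, SE 0.64, edgeR adjusted p = 0.0290). Ces2e had counts that were not whole in 9 libraries, since the counting shares reads between close relatives, and is uncertain. Btnl6 had at most 6 counts in any BSHlow tumor, so it was tested only through the BSHhigh tumors and its sign was fixed in advance.

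Of the goblet cell genes, 3 rose. All 20 tested had a positive log2 fold change, the median was 2.00, 14 had groups that did not overlap and 3 were called, Zg16, Fcgbp and Retnlb. Retnlb had at most 7 counts in any BSHlow tumor. It had enough counts to be tested only through the BSHhigh tumors, so its positive sign was fixed in advance. Zg16 (ENSMUSG00000049350.6) encodes a lectin of the mucus that binds bacterial cell walls. It had 3.24, 2.39, 1.82 and 1.14 CPM in BSHlow tumors and 1215, 121 and 81.2 CPM in BSHhigh tumors, so that replicate a was far above b and c, and even c was above every BSHlow tumor. The log2 fold change of Zg16 was 7.78 (SE 1.11, edgeR adjusted p = 0.0406) and 5.54 without replicate a.

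Retnlb, another gene of the goblet cell list, had at most 0.39 CPM in BSHlow tumors and 33.2, 7.98 and 5.59 CPM in BSHhigh tumors. Its log2 fold change was 6.21 (SE 0.89, edgeR adjusted p = 0.0406). Fcgbp, a mucus protein, had 48.9, 35.1, 41.5 and 31.0 CPM in BSHlow tumors and 1261, 578 and 154 CPM in BSHhigh tumors. Counts of Fcgbp were not whole in 22 libraries, so its level is uncertain. Muc2, the main secreted mucin, had 31.3, 36.4, 22.5 and 10.3 CPM against 1218, 337 and 159 CPM, and a log2 fold change of 4.50 just missed the threshold (SE 0.73, edgeR adjusted p = 0.0511). The goblet list summed to between 438 and 560 CPM in BSHlow tumors, to 5932, 2092 and 1213 CPM in BSHhigh tumors and to between 15830 and 40530 CPM in non-tumor tissue.

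Further mucins and surface genes were named after their values were seen. The membrane mucins Muc13 and Muc1 were higher by 1.53 (SE 0.24, edgeR adjusted p = 0.0481) and 1.64 (SE 0.24, edgeR adjusted p = 0.0421) on the log2 scale. Clca3b, of a family of secreted channel regulators, had 36.1, 15.9, 32.4 and 20 CPM in BSHlow and 901, 780 and 231 CPM in BSHhigh tumors, and its counts were not whole in 18 libraries. Plet1, a surface protein of epithelial progenitors, had 19.3, 21.4, 31.8 and 20.8 CPM against 344, 133 and 76.8 CPM (log2 fold change 2.98, SE 0.47, edgeR adjusted p = 0.0481). The acute-phase gene Saa1 (5.42, not whole in 17 libraries) and the retinol dehydrogenase gene Dhrs9 (3.53) were also called.

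Of 9 tested genes of enteroendocrine cells, which release gut hormones, 7 had a positive log2 fold change and the median was 2.38. Chga, a granule protein, was called, with 1.54, 3.90, 1.72 and 1.62 CPM in BSHlow and 12.8, 11.03 and 10.7 CPM in BSHhigh tumors (log2 fold change 2.38, SE 0.35, edgeR adjusted p = 0.0421). Its BSHhigh values lay close together, unlike those of the colonocyte and goblet genes. Chgb, another granule protein, had a log2 fold change of 3.46 and did not pass (SE 0.64, edgeR adjusted p = 0.0585). The hormone genes Insl5 and Gcg had at most 0.052 and 0.104 CPM in any BSHlow tumor and between 0.627 and 4.68 CPM in BSHhigh tumors. Both had enough counts to be tested only through the BSHhigh tumors, so their positive sign was fixed in advance. Pyy went the other way without passing, with 13.7, 498, 262 and 55.5 CPM in BSHlow and 30.2, 30.0 and 73.3 CPM in BSHhigh tumors, so the groups overlapped. Tuft cell genes had a median of -0.24 over 9 genes, with 0 called, and the values of Dclk1 (0.81) and Avil (-0.31) overlapped between the groups.

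**Figure D2:**
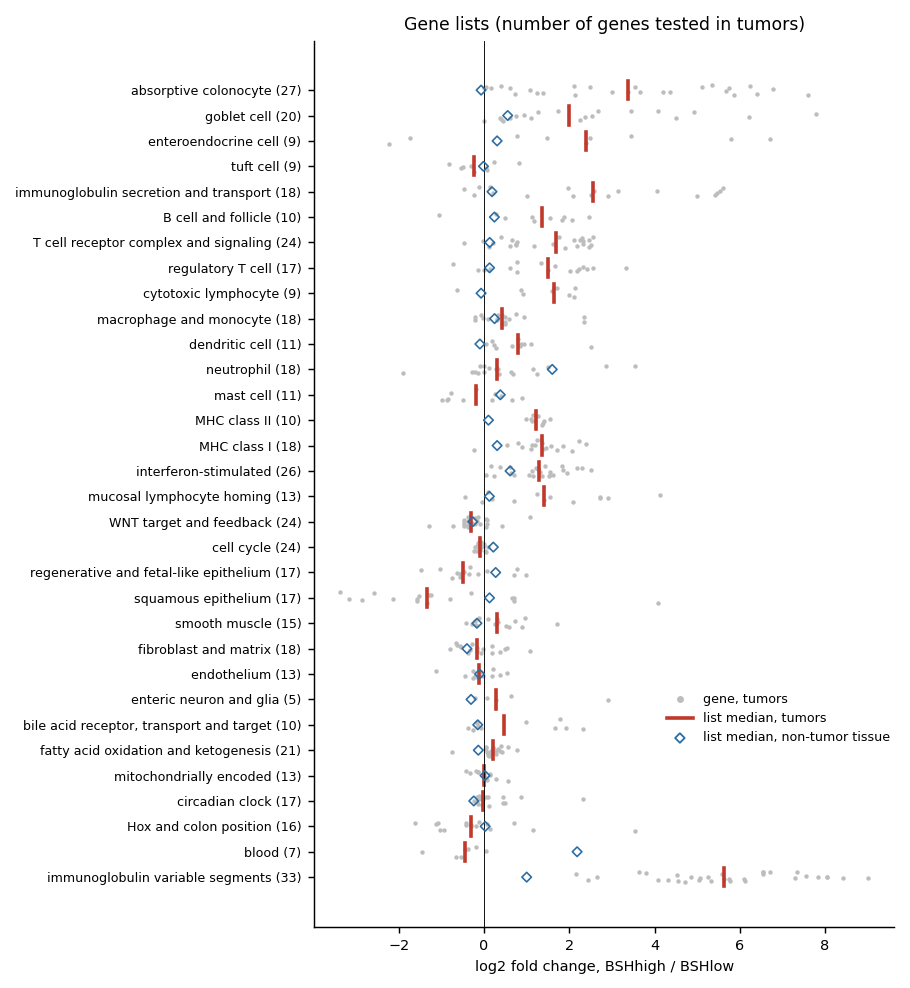
Log2 fold change of each tested gene in tumors (gray points), the list median in tumors (red bar) and the list median in non-tumor tissue (blue diamond) for 32 gene lists, with the number of genes tested in tumors in brackets. The colonocyte, goblet, enteroendocrine and immunoglobulin medians in tumors lie at 2.00 or above, and the squamous list has the lowest median, -1.33.

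Genes for the joining chain and light chains of antibodies and for their carrier rose. Of 18 tested genes of immunoglobulin secretion and transport, 15 had a positive log2 fold change, the median was 2.55, 12 had groups that did not overlap and Jchain, Igkc, Iglc2 and Pigr were called. Jchain (ENSMUSG00000067149.6, chromosome 5, 88519809 to 88527891, minus strand) joins IgA into dimers. It had 3.40, 0.891, 4.26 and 0.108 CPM in BSHlow and 95.6, 95.6 and 127 CPM in BSHhigh tumors, a log2 fold change of 5.60 (SE 0.70, edgeR adjusted p = 0.0343). The constant regions Igkc and Iglc2 rose by 5.41 (SE 0.82, edgeR adjusted p = 0.0446) and 5.46 (SE 0.63, edgeR adjusted p = 0.0290). Iglc2 had at most 4 counts in any BSHlow tumor, so it was tested only through the BSHhigh tumors and its sign was fixed in advance.

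Igha, the heavy chain of IgA, had between 1.68 and 26.8 CPM in BSHlow and between 412 and 672 CPM in BSHhigh tumors, and between 573 and 8165 CPM in non-tumor tissue. It just missed the threshold (log2 fold change 5.53, SE 0.91, edgeR adjusted p = 0.0511), and Prdm1, a regulator of plasma cells that is also made in epithelium, did not pass (-0.47, SE 0.15, edgeR adjusted p = 0.234). Pigr (ENSMUSG00000026417.13, chromosome 1, 130826684 to 130852249, plus strand) carries IgA through the epithelium. It had 281, 248, 328 and 132 CPM in BSHlow and 2062, 1307 and 874 CPM in BSHhigh tumors, a log2 fold change of 2.51 (SE 0.36, edgeR adjusted p = 0.0406). Here replicate a was highest, while Jchain was highest in replicate c.

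Of 348 immunoglobulin variable segments, 33 had enough counts to be tested, all 33 had a positive log2 fold change and 10 were called. Their median was 5.62, or 5.08 with the 16 segments that had at most 3 counts over the BSHlow tumors set to a floor of 3 counts over that group. These 16 had enough counts to be tested only through the BSHhigh tumors, so their positive sign was fixed in advance and is no result. The same held for called segments with somewhat more counts over the BSHlow tumors, such as Ighv1-64 and Igkv10-94 with 4 and Igkv1-110 with 9. That all 33 were positive is therefore no result by itself. Together all segments summed to 6.86, 1.11, 11.5 and 0.162 CPM in the BSHlow tumors, to 158, 135 and 195 CPM in the BSHhigh tumors and to between 210 and 3071 CPM in non-tumor tissue. Igkv2-137 had 0 counts in the BSHlow tumors and was at least 43.7-fold higher in BSHhigh tumors against that floor, which covers counting error only. Ighv1-53 had 4.57, 2.27 and 9.04 CPM in the BSHhigh tumors and Igkv1-110 had 12.0, 7.39 and 16.7 CPM, each highest in replicate c. Reads of near-identical segments were shared by the counting (not whole in 7 libraries for Ighv1-53 and in 19 for Igkv1-110), so single segments are uncertain.

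The order of the BSHhigh tumors differed between these groups of genes. Of the 61 called genes that are not variable segments, 53 (86.9%) had their highest level in replicate a, the next in b and the lowest in c, as had 19.9% of all genes tested. Of the 10 called variable segments, 0 had this order, and 2, 4 and 4 were highest in a, b and c. For 42 of the 71 (59.2%) every BSHhigh tumor lay below every non-tumor library, as for 22.5% of all genes tested. Tnfsf10 alone had every BSHhigh tumor above every non-tumor library, where 28.5% of all genes tested had.

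**Figure D3:**
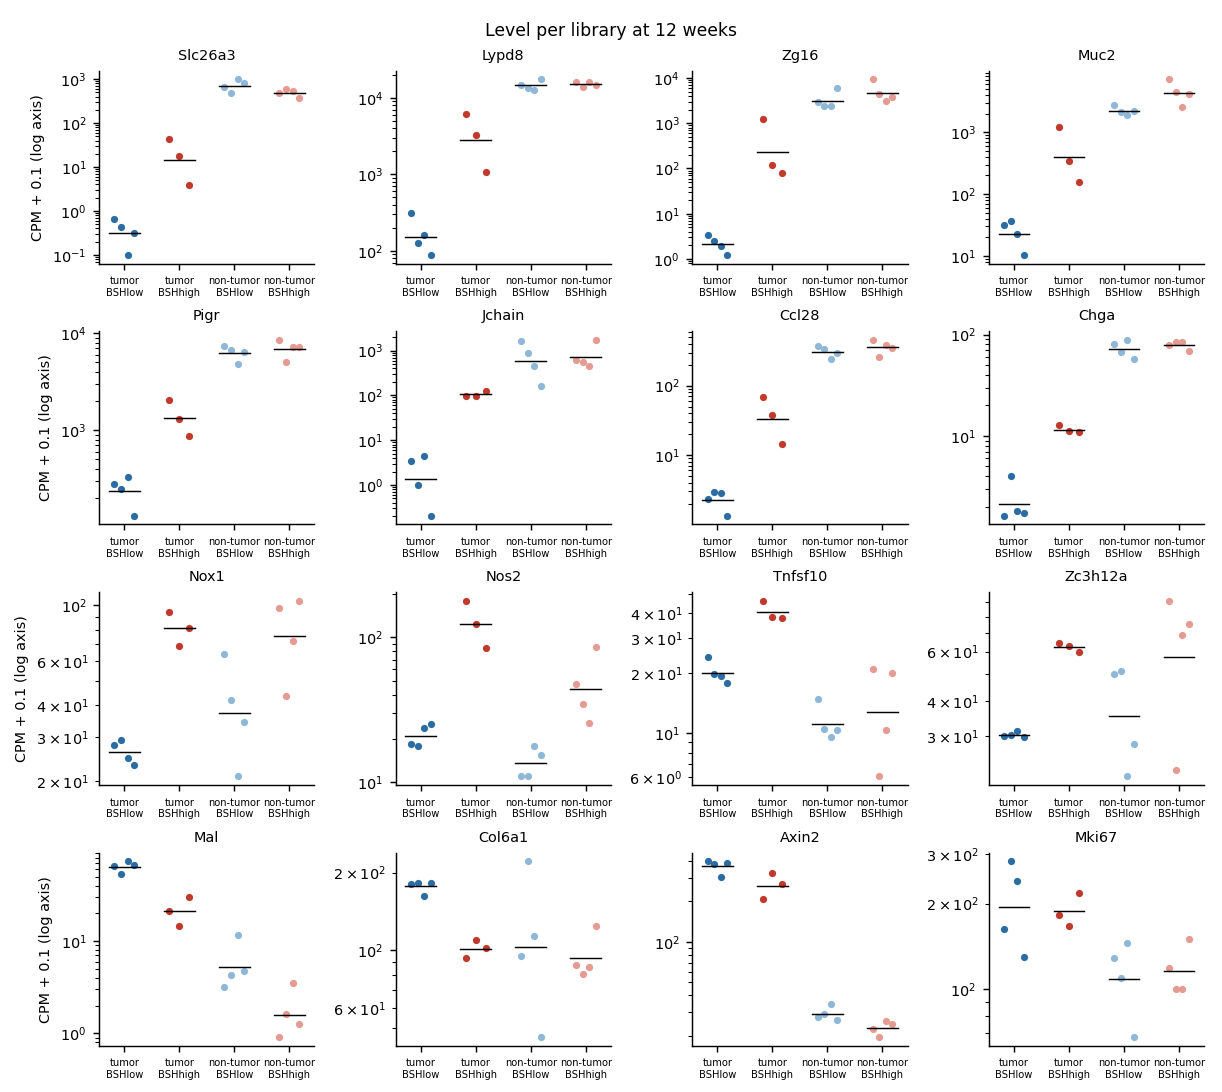
Level (CPM + 0.1, log axis) of 16 genes in each library of 12 weeks. Points are libraries, the line is the geometric mean of a group, and groups are 4 BSHlow tumors, 3 BSHhigh tumors and 4 non-tumor libraries of each strain. The BSHhigh tumors lie between the BSHlow tumors and non-tumor tissue for Slc26a3, Lypd8, Zg16, Muc2, Pigr, Ccl28 and Chga, and above non-tumor tissue for Tnfsf10.

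Genes of oxidant production and of inflammatory signaling, named after their values were seen, included the genes with the 3 smallest p-values. Nox1, the superoxide-producing oxidase of colon epithelium, had 27.8, 29.0, 24.6 and 22.97 CPM in BSHlow and 93.8, 69.02 and 81.4 CPM in BSHhigh tumors. Its log2 fold change was 1.64 (SE 0.13, edgeR adjusted p = 0.0145), and it was called in 14 of 17 other fits. Nos2, the inducible nitric oxide synthase, had 18.1, 17.7, 23.6 and 25.3 CPM against 179, 123 and 84.9 CPM (log2 fold change 2.60, SE 0.26, edgeR adjusted p = 0.0290). Duox2, a hydrogen peroxide-producing oxidase, and its maturation factor Duoxa2 rose by 2.38 (SE 0.30, edgeR adjusted p = 0.0343) and 2.53 (SE 0.31, edgeR adjusted p = 0.0343), and counts of Duox2 were not whole in 15 libraries.

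Zc3h12a, an RNase that degrades inflammatory mRNAs, had 30.0, 30.1, 31.1 and 29.6 CPM in BSHlow and 64.1, 62.9 and 59.5 CPM in BSHhigh tumors. With this small spread its log2 fold change of 1.04 had the lowest adjusted p-value of all genes (SE 0.08, edgeR adjusted p = 0.0113). Tifa, an adaptor that senses a bacterial sugar, rose by 1.24 (SE 0.17, edgeR adjusted p = 0.0365), and the metalloreductase gene Steap4 by 1.86 (SE 0.23, edgeR adjusted p = 0.0343). Tnfsf10, the death ligand TRAIL, had 23.9, 19.8, 19.2 and 17.7 CPM against 46.1, 38.0 and 37.7 CPM, while non-tumor libraries had at most 20.9 CPM. Its log2 fold change was 1.005 (SE 0.14, edgeR adjusted p = 0.0365), at the edge of the threshold.

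Of the genes that draw lymphocytes to mucosa, 11 of 13 tested had a positive log2 fold change (median 1.41), and Ccl28 and Madcam1 were called. Ccl28, a chemokine of mucosal epithelium, had 2.25, 2.84, 2.76 and 1.24 CPM in BSHlow and 67.9, 38.3 and 14.1 CPM in BSHhigh tumors, a log2 fold change of 4.13 (SE 0.53, edgeR adjusted p = 0.0344). Madcam1, an adhesion molecule of gut venules, had 1.10, 0.501, 0.572 and 0.541 CPM against 7.22, 4.48 and 3.82 CPM. The chemokine receptor Cxcr6 (log2 fold change 2.73, SE 0.44, edgeR adjusted p = 0.05001), which overlaps Fyco1 on the other strand, and the sulfotransferase gene Chst4 (2.73, SE 0.61, edgeR adjusted p = 0.0901) did not pass.

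No T cell gene passed the test. Of 24 tested genes of the T cell receptor complex and its signaling, 22 had a positive log2 fold change, the median was 1.69, 12 had every BSHhigh tumor above and 1 every BSHhigh tumor below the BSHlow tumors, and 0 were called, against 11 with DESeq2. Cd3g, a chain of that complex, had 2.58, 0.779, 1.20 and 1.03 CPM in BSHlow and 10.6, 6.35 and 7.06 CPM in BSHhigh tumors (log2 fold change 2.50, SE 0.43, edgeR adjusted p = 0.0536). The adhesion receptor gene Cd2 (2.18) and the receptor chain Trbc1 (2.33, not whole in 23 libraries) had adjusted p-values of 0.0795 and 0.101 (edgeR). Tcf7, a WNT effector that T cells and tumor epithelium share, was at -0.47 (SE 0.16, edgeR adjusted p = 0.271).

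In the list of regulatory T cells, 15 of 17 genes had a positive log2 fold change (median 1.502), 12 had every BSHhigh tumor above and 1 every BSHhigh tumor below the BSHlow tumors, with 0 called and 10 called by DESeq2. Il2ra, the high-affinity IL-2 receptor chain, had 2.03, 0.501, 1.77 and 1.30 CPM against 7.16, 13.1 and 4.81 CPM, highest in replicate b, and a log2 fold change of 2.56 (SE 0.50, edgeR adjusted p = 0.0643). Izumo1r (3.32), Tigit (2.01), Ccr4 (2.42), Icos (2.31), Ctla4 (2.23) and the lineage factor Foxp3 (2.18, overlapping Flicr on its strand) had adjusted p-values of 0.0610, 0.0714, 0.0846, 0.114, 0.153 and 0.190 (edgeR). Il1rl1, the IL-33 receptor, went the other way (-0.72, SE 0.26, edgeR adjusted p = 0.288), with 154 to 276 CPM in BSHhigh and 278 to 481 CPM in BSHlow tumors.

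Of 9 tested genes of cytotoxic lymphocytes, 8 were positive, with a median of 1.65 and 0 called. The values were 2.13 for Il2rb (edgeR adjusted p = 0.0585), 1.98 for Ccl5 (edgeR adjusted p = 0.0610) and 2.11 for the granzyme gene Gzmb (edgeR adjusted p = 0.212). Cd4 had a log2 fold change of 1.17 and Cd8a of 1.61, with adjusted p-values of 0.486 and 0.580 (edgeR) and overlapping groups. In the B cell list 9 of 10 tested genes were positive (median 1.37) and 0 were called. By p-value the first were Ltb (1.83, edgeR adjusted p = 0.0664), Cxcl13 (1.17), Cd37 (1.13) and Cd79b (2.08), while Cd79a had the highest log2 fold change (2.47) with overlapping groups and Ebf1 was at -1.05. The B cell marker Ms4a1 had too few counts to be tested.

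Of the 18 tested genes of macrophages and monocytes, 14 were positive, but the median was 0.42 and 0 were called. The monocyte genes Ccr2 and Ly6c2 had log2 fold changes of 2.35 (SE 0.42, edgeR adjusted p = 0.0568) and 2.33 (SE 0.48, edgeR adjusted p = 0.0784), and the latter had counts that were not whole in 22 libraries. Ccr2 had 6.15, 1.67, 3.17 and 2.60 CPM in BSHlow and 22.3, 16.4 and 13.4 CPM in BSHhigh tumors, which did not overlap. Adgre1, a marker of tissue macrophages (0.49), and Fcgr1 (0.95) overlapped between the groups. All 11 tested dendritic cell genes were positive with a median of 0.80 and 0 called, among them Ccl22 (1.11, edgeR adjusted p = 0.197) and Irf8 (0.80, edgeR adjusted p = 0.273).

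In the neutrophil list 12 of 18 tested genes were positive (median 0.30) and Ly6g was called, with 6.20, 7.96, 7.75 and 6.81 CPM in BSHlow and 83.7, 45.8 and 26.8 CPM in BSHhigh tumors (log2 fold change 2.85, SE 0.35, edgeR adjusted p = 0.0343). Ly6g had 152 to 276 CPM in non-tumor tissue, above all tumors. The neutrophil markers S100a8, S100a9 and Csf3r did not pass and overlapped between the groups, at 1.24, 0.69 and -0.01 (edgeR adjusted p = 0.536, 0.743 and 0.997). Il1b, an inflammatory cytokine, had 46.2, 31.6, 35.6 and 41.0 CPM against 62.7, 72.8 and 194 CPM, highest in replicate c, and did not pass (1.505, SE 0.38, edgeR adjusted p = 0.126). Lcn2 (1.16) and Ngp (3.54) overlapped between the groups, and so did Hdc, which makes histamine (-1.89, edgeR adjusted p = 0.390). Without replicate c the median of the list was -0.27. The mast cell list had a median of -0.20 over 11 genes and 0 called, and Kit was at 0.66.

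No gene of antigen presentation or of the interferon response passed the test. All 10 tested genes of MHC class II were positive (median 1.23, 0 called, 0 with groups that did not overlap). Replicate 1 of the BSHlow tumors had a summed level of 1079 CPM, while the others had between 98.5 and 207 CPM and the BSHhigh tumors 1514, 683 and 498 CPM. H2-Ab1 had 156, 16.3, 32.4 and 27.3 CPM in BSHlow and 232, 110 and 77.8 CPM in BSHhigh tumors (log2 fold change 1.26, SE 0.76, edgeR adjusted p = 0.553). Its regulator Ciita (1.54) and the peptide loader H2-DMa (1.12) were also highest among BSHlow tumors in replicate 1.

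Of 18 tested genes of MHC class I, 17 were positive with a median of 1.35 and 0 were called. H2-K1 had 438, 231, 294 and 256 CPM against 1382, 458 and 498 CPM (log2 fold change 1.35, SE 0.41, edgeR adjusted p = 0.212). H2-Q2 (1.71), H2-Q4 (1.25) and the immunoproteasome gene Psmb10 (1.13) had adjusted p-values of 0.183, 0.239 and 0.175 (edgeR). Counts of H2-K1 and H2-Q2 were not whole in 20 and 22 libraries.

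All 26 interferon-stimulated genes tested were positive with a median of 1.29, of which 2 had groups that did not overlap, 0 were called and 6 were called by DESeq2. Irf1, a transcription factor that interferons induce, had 38.4, 48.2, 49.3 and 36.6 CPM in BSHlow and 170, 90.1 and 74.5 CPM in BSHhigh tumors (log2 fold change 1.37, SE 0.27, edgeR adjusted p = 0.0705). The guanylate-binding protein gene Gbp2, named after its values were seen, had the largest difference, with 32.4, 2.56, 5.82 and 3.35 CPM against 132, 35.5 and 21.9 CPM, so that BSHlow replicate 1 overlapped the BSHhigh tumors (2.51, SE 0.97, edgeR adjusted p = 0.324). The same held for Oas1a (1.31, not whole in 23 libraries) and Zbp1 (1.85), sensors of foreign nucleic acids. Within non-tumor tissue the median of the 26 genes was 0.61, with 0 called.

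The promoter letters of these genes were read from RefSeq (GRCm38.p6), as the 250 bases before each start. Searched on both strands were the core of the interferon-stimulated response element (GAAA, any 2 bases and GAAA again), CAAAGTCCA of the HNF4 factors, CNATAAA of CDX factors, which overlaps the TATA box letters TATAAA where N is T, and ATCAAAG of the TCF/LEF factors of the WNT pathway. The response element core stood before 12 of the 20 interferon-stimulated genes found in the table (60.0%) and before 3.46% of all 27025 genes. Promoters of Ifit1 (chr19:34640639-34640888, plus strand), Isg15 (chr4:156200819-156201068, minus strand) and Gbp2 (chr3:142620413-142620662, plus strand) are shown to let these elements be seen, in capitals, in genes of that group.
Ifit1: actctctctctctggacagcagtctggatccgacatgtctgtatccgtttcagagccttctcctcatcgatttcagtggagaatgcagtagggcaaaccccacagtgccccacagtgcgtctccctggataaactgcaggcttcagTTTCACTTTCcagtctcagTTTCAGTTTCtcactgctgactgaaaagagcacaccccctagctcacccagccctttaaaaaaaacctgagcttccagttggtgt
Isg15: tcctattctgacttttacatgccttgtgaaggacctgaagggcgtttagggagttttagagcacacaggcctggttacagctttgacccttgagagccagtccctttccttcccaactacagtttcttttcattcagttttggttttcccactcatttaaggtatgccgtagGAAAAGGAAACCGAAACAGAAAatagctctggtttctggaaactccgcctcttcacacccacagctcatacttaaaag
Gbp2: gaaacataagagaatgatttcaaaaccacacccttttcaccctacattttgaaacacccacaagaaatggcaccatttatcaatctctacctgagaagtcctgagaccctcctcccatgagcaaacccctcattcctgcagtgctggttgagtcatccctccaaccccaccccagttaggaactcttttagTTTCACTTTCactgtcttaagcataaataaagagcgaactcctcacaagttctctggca

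Isg15 and Ifit1, which encode antiviral proteins, had log2 fold changes of 1.23 (SE 0.46, edgeR adjusted p = 0.308) and 1.95 (SE 0.65, edgeR adjusted p = 0.251) and were named after their values were seen. Of the 71 called genes, 47 were found in the promoter table. CNATAAA stood before 6 of them (12.8%), against 7.91% of the 11360 tested genes found and 11.3% of all genes. CAAAGTCCA stood before 1 (2.13%, against 0.440% of tested and 0.451% of all genes) and the response element core before 1 (2.13%, against 3.24% and 3.46%). ATCAAAG stood before 0 (against 2.93% and 3.72%). The HNF4 letters stood before Muc13 (chr16:33794239-33794488, plus strand), and the CDX letters before Nox1 (chrX:134111855-134112104, minus strand), among others, in capitals below because these genes are among those that rose.
Muc13: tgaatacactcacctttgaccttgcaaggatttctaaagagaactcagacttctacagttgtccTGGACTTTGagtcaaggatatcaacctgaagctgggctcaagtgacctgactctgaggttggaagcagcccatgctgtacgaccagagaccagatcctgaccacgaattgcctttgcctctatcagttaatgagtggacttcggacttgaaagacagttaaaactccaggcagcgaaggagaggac
Nox1: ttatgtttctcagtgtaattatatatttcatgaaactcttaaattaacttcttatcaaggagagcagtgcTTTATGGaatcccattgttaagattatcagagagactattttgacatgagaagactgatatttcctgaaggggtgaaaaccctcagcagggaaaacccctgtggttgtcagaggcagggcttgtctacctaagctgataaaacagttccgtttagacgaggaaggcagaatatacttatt
A match of letters is a description and says nothing of binding in these tumors.

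Few genes were called lower in BSHhigh tumors. The list of squamous epithelium, a stratified lining that the colon lacks beyond the anal canal, was drawn up with Mal and Tmprss11b already known to be lower, so that its holding both is no result. Of its 17 tested genes, these included, 13 had a negative log2 fold change (median -1.33). In 7 the BSHhigh tumors lay below every BSHlow tumor, where 4.22% of all genes did, and DESeq2 called 8 lower. Mal (ENSMUSG00000027375.14) had 65.5, 53.4, 73.1 and 66.7 CPM in BSHlow and 21.2, 14.4 and 30.2 CPM in BSHhigh tumors (log2 fold change -1.57, SE 0.25, edgeR adjusted p = 0.0481).

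Tmprss11b had 1.65, 1.503, 1.20 and 0.973 CPM against 0.113, 0.049 and 0.209 CPM (log2 fold change -3.37, SE 0.53, edgeR adjusted p = 0.0481). With so few counts in the BSHhigh tumors, Tmprss11b was tested only through the BSHlow tumors, so its negative sign was fixed in advance. Lor, of the cornified envelope, was at -2.57 (SE 0.50, edgeR adjusted p = 0.0639), and Dsg4, a desmosome protein outside the list, at -2.37 (SE 0.40, edgeR adjusted p = 0.0536). The defining markers Krt5 and Trp63 had at most 0.223 and 0.197 CPM in any tumor, and Krt13 had 2.76 to 15.3 CPM. Tgm3, a transglutaminase that non-tumor colon had at 689 CPM or more, was the exception of the list, with 6.81, 0.668, 0.468 and 1.30 CPM against 58.4, 44.2 and 15.1 CPM (log2 fold change 4.07, SE 0.89, edgeR adjusted p = 0.0865).

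Some lower genes passed the p-value threshold with a fold change under the limit and were not called. Col6a1 (ENSMUSG00000001119.7, chromosome 10, 76708792 to 76726168, minus strand) encodes a chain of collagen VI, a matrix protein of fibroblasts. It had 180, 182, 162 and 183 CPM in BSHlow and 93.1, 109 and 103 CPM in BSHhigh tumors, a log2 fold change of -0.81 (SE 0.09, edgeR adjusted p = 0.0290). Col6a2, of the same collagen, was at -0.89 (SE 0.13, edgeR adjusted p = 0.0421), Morc4, a chromatin ATPase gene, at -0.70 (SE 0.10, edgeR adjusted p = 0.0406) and Id2, an inhibitor of differentiation, at -0.62 (SE 0.10, edgeR adjusted p = 0.0481). Itpripl2 (-0.68), Mfap3l (-1.41), Cavin1 of caveolae (-1.01) and the NOTCH receptor gene Notch3 (-0.84) had adjusted p-values between 0.0536 and 0.0585 (edgeR), and their groups did not overlap.

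Of the genes in the stromal lists, 0 were called. The fibroblast list had a median of -0.17 over 18 genes, with Dcn (0.48) and Grem1 (1.07) higher in value and Col5a1 lower (-0.55), and all 3 overlapped between the groups. The endothelial list had a median of -0.13 over 13 genes, with Cdh5 at -0.22 and Vwf at 0.55, and the smooth muscle list one of 0.32 over 15, with Myh11 at 0.89 (SE 0.20, edgeR adjusted p = 0.0901) and Cnn1 at 1.71 (edgeR adjusted p = 0.269). The summed smooth muscle level was between 632 and 859 CPM in BSHlow and between 663 and 817 CPM in BSHhigh tumors, against 2360 CPM or more in non-tumor tissue. Of 5 tested genes of enteric neurons and glia, Ret, a receptor for glial-derived growth factors, had 4.28, 2.28, 9.25 and 2.16 CPM against 62.7, 18.3 and 20.4 CPM (2.90, SE 0.63, edgeR adjusted p = 0.0863). Blood genes varied widely within both groups, with summed levels of 409 to 3845 CPM and 308 to 3486 CPM, and the platelet gene Ppbp was at -1.46 (edgeR adjusted p = 0.260) and Pf4 at -0.65.

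**Figure D4:**
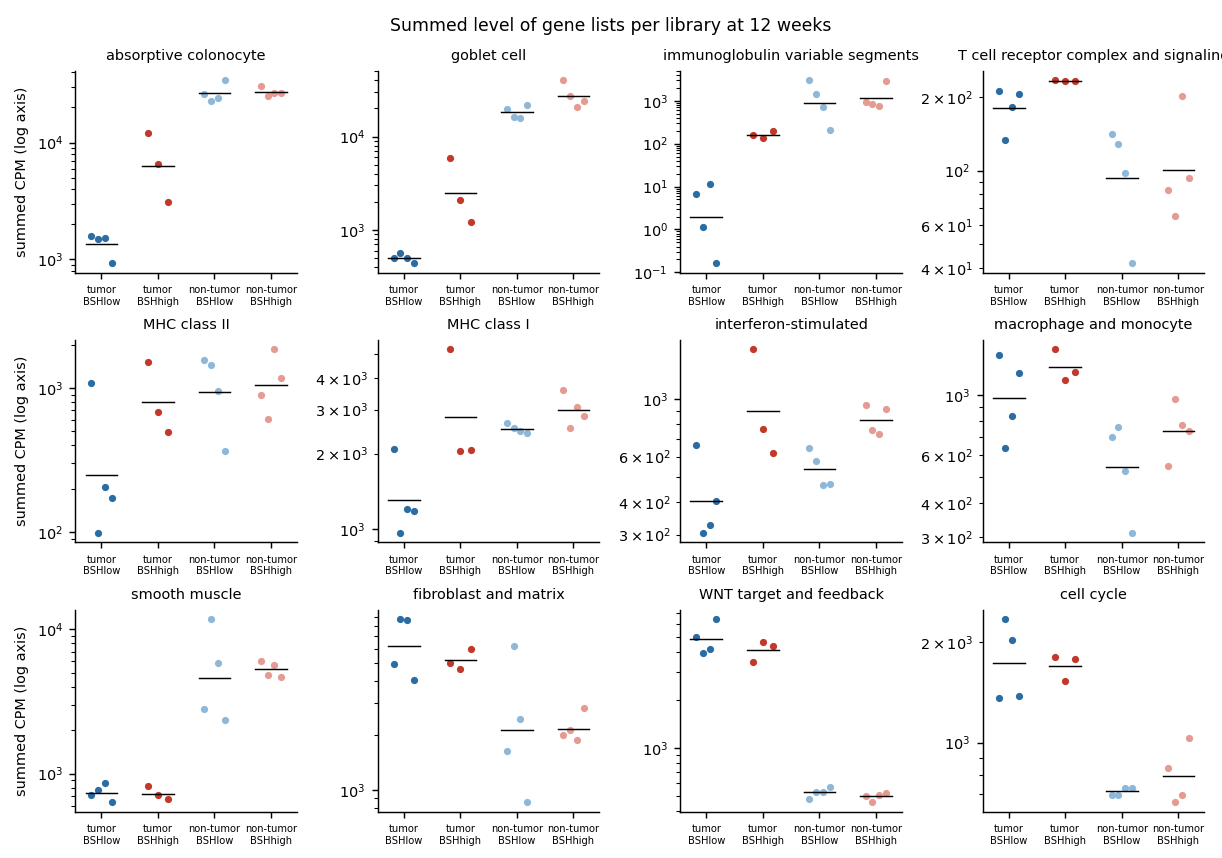
Summed level (CPM, log axis) of 12 gene lists in each library of 12 weeks, with the geometric mean of each group as a line. The colonocyte, goblet and variable segment lists separate BSHhigh from BSHlow tumors, replicate 1 of the BSHlow tumors stands at 1079 CPM in MHC class II, and smooth muscle, WNT target and cell cycle lists overlap between the tumor groups.

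WNT targets and cell cycle genes, which mark growth, differed little. In the WNT list 18 of 24 tested genes had a negative log2 fold change, with a median of -0.30 and 0 called. Axin2 had 397, 379, 306 and 384 CPM in BSHlow and 207, 323 and 267 CPM in BSHhigh tumors (-0.47, SE 0.16, edgeR adjusted p = 0.272). Myc was at -0.38, Ccnd1 at -0.46 and the inhibitor gene Dkk2 at -0.73, with adjusted p-values of 0.333, 0.292 and 0.141 (edgeR), while the matrix protease gene Mmp7 was at 1.08 (SE 0.24, edgeR adjusted p = 0.0918) with 441 to 711 CPM in BSHhigh and 223 to 395 CPM in BSHlow tumors.

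All 24 cell cycle genes lay between -0.23 and 0.10, with 0 called. The proliferation marker Mki67 had 162, 282, 241 and 129 CPM against 182, 167 and 218 CPM, and its log2 fold change was -0.11 (SE 0.26, edgeR adjusted p = 0.894). Of 17 tested genes of regenerative or fetal-like epithelium 13 were negative (median -0.49), with Krt7 (-0.51, edgeR adjusted p = 0.119) and Msln (-1.47, edgeR adjusted p = 0.227) against Ly6a (0.98, edgeR adjusted p = 0.239).

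Cdx2, the caudal factor that sets colon identity and whose promoter drives the Cre, had 1.21, 0.278, 2.13 and 0.486 CPM in BSHlow and 30.1, 3.55 and 2.67 CPM in BSHhigh tumors. Its groups did not overlap and it did not pass (log2 fold change 3.54, SE 0.99, edgeR adjusted p = 0.174). Without replicate a it was at 1.57. Cdx1 was at 1.15 (SE 0.28, edgeR adjusted p = 0.118) and Hoxa9 at -0.31, and the list of Hox and position genes had a median of -0.30 over 16 genes.

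Of 10 tested genes of bile acid receptors, transport and targets, 5 had a positive log2 fold change, each with groups that did not overlap, and 0 were called, against 4 with DESeq2. Vdr, the vitamin D receptor that also binds lithocholic acid, had 17.6, 20.3, 12.9 and 7.30 CPM in BSHlow and 68.1, 46.2 and 36.9 CPM in BSHhigh tumors (log2 fold change 1.79, SE 0.34, edgeR adjusted p = 0.0627), below the 330 CPM or more of non-tumor tissue. Nr1i2, which encodes PXR, was at 1.66 (SE 0.37, edgeR adjusted p = 0.0901), Nr1h4, which encodes FXR, at 1.93 (SE 0.47, edgeR adjusted p = 0.114) and the exporter gene Abcc3 at 0.996 (SE 0.27, edgeR adjusted p = 0.154). Gpbar1, which encodes the bile acid receptor TGR5, had too few counts to be tested.

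In metabolism, 20 of 21 tested genes of fatty acid oxidation and ketogenesis were positive, with a median of 0.21 and 0 called. Bdh1, of ketone bodies, was at 0.77 (edgeR adjusted p = 0.257) and Hadh at 0.37. Mitochondrially encoded genes had a median of 0.003 over 13 genes. The clock list had a median of -0.03 over 17, although Per2 (0.87, SE 0.18, edgeR adjusted p = 0.0837) and Hlf (2.32, SE 0.60, edgeR adjusted p = 0.140) had groups that did not overlap.

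The same strains were compared in non-tumor tissue, which shares no library with the tumors. There 0 of 14933 genes were called (0.0%) by edgeR, 145 (0.971%) were higher and 68 (0.455%) lower at an unadjusted p under 0.05 with a log2 fold change over 1, and DESeq2 called 48 higher and 14 lower. The median of the colonocyte list was -0.07, that of the goblet list 0.56 and that of the T cell list 0.13. Whether the effect differed between the tissues was tested by an interaction term over 15 libraries, without a term for the mouse. The labels do not say whether tumor and non-tumor libraries came from the same mice. The interaction passed both thresholds for 161 of 16454 genes (0.978%). For 160 of them (0.972%) the log2 fold change was more positive in tumors and for 1 (0.00608%) more negative. Of the 27 tested colonocyte genes 12 were among them, of 20 goblet genes 4, of 18 genes of immunoglobulin secretion and transport 3, and of 33 immunoglobulin variable segments 0, whose median in non-tumor tissue was 1.001. With limma-voom the interaction passed for 0 genes, and for 670 more positive and 70 more negative in tumors at an unadjusted p under 0.05 with a log2 difference over 1.

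For the oxidant genes the difference between the tissues was not shown. Nos2 had 10.9 to 17.7 CPM in BSHlow and 25.6 to 85.8 CPM in BSHhigh non-tumor tissue, which did not overlap, and its log2 fold change there was 1.82 (SE 0.36, edgeR adjusted p = 0.271). The interaction was 0.80 (edgeR adjusted p = 0.690). Nox1 was at 0.98 in non-tumor tissue, with 20.8 to 64.1 CPM against 43.3 to 104 CPM (edgeR adjusted p = 0.486). Mal was lower in both tissues, with 3.12 to 11.7 CPM against 0.820 to 3.42 CPM in non-tumor tissue (-1.75, SE 0.55, edgeR adjusted p = 0.408) and an interaction of 0.19 (edgeR adjusted p = 0.977). Plet1 and Retnlb were at 3.93 (edgeR adjusted p = 0.402) and 2.82 (edgeR adjusted p = 0.486) in non-tumor tissue.

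**Figure D5:**
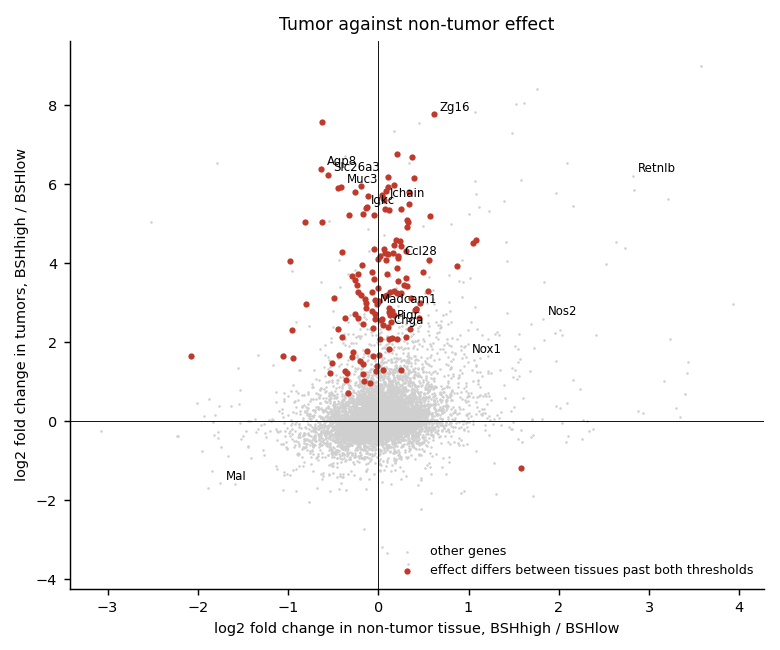
Log2 fold change of BSHhigh over BSHlow in tumors (y axis) against that in non-tumor tissue (x axis) for 14111 genes tested in both. Red points are 148 of these genes whose effect differed between the tissues past both thresholds; Zg16, Slc26a3 and Ccl28 lie high in tumors and near 0 in non-tumor tissue, and Nos2 and Nox1 are positive in both.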

How the data were processed

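RNA-seq libraries of colon tumors and non-tumor colon were analyzed. The authors trimmed reads with cutadapt, aligned them with STAR to mm10 and deposited RSEM expected counts per gene (Picard is also named). The labels name a stranded total RNA kit and the study's methods an mRNA kit. Of 55450 genes, 1 with a text cell was left out, and 4.24% of values were not whole (tolerance 0.001). The headers of the BSHhigh tumor columns repeat BSHlow tumor names, so they were assigned through the study's supplementary values and by group only.

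Counts were rounded and fitted with edgeR 4.0.16 (quasi-likelihood, TMM scaling, filterByExpr) in R 4.3.3, with Benjamini-Hochberg adjustment over all genes tested. An interaction was fitted over 15 libraries. DESeq2 1.42.0 and limma 3.58.1 were alternatives, beside other scalings, filters and left-out libraries. On simulated data for 4 against 3 tumors with 15325 genes, 74 of 100 genes changed by 1.5 (log2) and 95 of 100 changed by 3 were called, with 6 unchanged genes. The changed genes were drawn only from genes above a minimum mean level, so these shares do not cover genes with few counts. Counts were simulated with the fitted spread of each gene, without single libraries that deviate in many genes at once. Named genes were the largest called changes, the lower genes of smallest p, up to 4 members and the most opposite member of each list, and genes the study named, with exceptions said to be chosen after their values were seen, and some genes are not reported here. The comparison, lists and rule were chosen with earlier results of these data known.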

Additional observations from a re-analysis of the deposited data

Results flagged for a closer look

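Of 155 tests for a library far from the other BSHlow tumors, 27 passed Dixon's critical value for 4 libraries, where chance gives about 1 in 20. Replicate 1 stood apart for antigen presentation and interferon genes, with 156 CPM of H2-Ab1, 16.3 CPM of H2-DMa, 9.61 CPM of Ciita, 58.1 CPM of H2-Q4, 30.1 CPM of Oas1a, 32.4 CPM of Gbp2, 32.7 CPM of Irf8 and a summed MHC class II level of 1079 CPM. It was also apart for Thbs4 (1.43 CPM), Prss30 (1.21 CPM), Madcam1 (1.10 CPM), Tgm3 (6.81 CPM) and the summed fatty acid oxidation list (1329 CPM). Replicate 2 was apart for Chga (3.90 CPM), Dcn (226 CPM), Vwf (37.1 CPM), Cdx1 (60.6 CPM) and the bile acid list (326 CPM). Replicate 3 was apart for Col6a1 (162 CPM), Dclk1 (8.47 CPM), Avil (246 CPM) and Plet1 (31.8 CPM). Replicate 4 was apart for Ebf1 (1.51 CPM), Ngp (1.95 CPM), Nr1i2 (3.51 CPM), the colonocyte list (926 CPM) and the mitochondrial list (28270 CPM).

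For 29 named genes the effect of the strain differed between tumors and non-tumor tissue in the interaction test of edgeR, with adjusted p-values between 0.0012 and 0.0482, while limma-voom called 0 genes. The difference, as the log2 effect in tumors minus that in non-tumor tissue, was 7.17 for Zg16, 7.05 for Aqp8, 6.82 for Slc26a3, 6.57 for Slc13a2, 6.40 for Atp12a, 6.36 for Muc3, 6.09 for Thbs4, 5.82 for 2610528A11Rik, 5.77 for Btnl6, 5.76 for Ces2e, 5.72 for Sult1b1, 5.24 for Slc5a8, 5.17 for Prss30 and 4.30 for Lypd8 among epithelial genes. It was 3.53 for Fcgbp, 3.52 for Clca3b, 3.46 for Muc2, 3.18 for Chgb and 2.29 for Chga. For antibody genes it was 5.54 for Igkc, 5.53 for Jchain and 2.38 for Pigr. For the others it was 5.57 for Saa1, 5.08 for Tgm3, 3.92 for Ccl28, 3.28 for Hlf, 2.45 for Ly6g, 1.93 for Vdr and 1.73 for Nr1i2.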

How the results depend on the processing

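The count of called genes depended on the test and the libraries. Against 71 higher and 2 lower genes, the likelihood-ratio test of edgeR called 504 and 39, robust quasi-likelihood 35 and 0, upper-quartile scaling 69 and 1, no filter 308 and 12, limma-voom 40 and 1, DESeq2 575 and 49, and the fit of all 15 libraries 500 and 10. All 71 were among the calls of the likelihood-ratio test, 70 among those of DESeq2 and 28 among those of limma-voom. Without 1 tumor library, between 0 and 234 genes were higher and between 0 and 6 lower, and where 0 were called, without BSHlow replicates 1, 3 and 4, 900, 704 and 683 were higher at an unadjusted p under 0.05 with a log2 fold change over 1 in edgeR. Of the genes in any list, 29 were called, 147 with DESeq2 and between 0 and 50 without 1 library.

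In non-tumor tissue, 0 genes were called without any 1 library or with limma-voom, and DESeq2 called 48 higher and 14 lower. No paired analysis was possible for tumors because the replicate numbers of the BSHhigh columns are unknown. Same-numbered non-tumor libraries did not deviate together (correlations between -0.195 and 0.184), and the replicate block there gave 1 gene higher and 0 lower. For the interaction (160 and 1), limma-voom gave 0 and 0, DESeq2 377 and 8, and leaving out 1 library between 86 and 334 and between 0 and 5.

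Of 2408 values of named genes under alternatives, 1938 kept direction and side of the threshold, 309 no longer passed, 160 newly passed and 1 changed sign, Mki67 at 0.10 without BSHlow tumor replicate 2. Of 256 list medians, 20 in 9 lists changed sign, among them the neutrophil list at -0.27 without BSHhigh replicate c and the smooth muscle list at -0.06 without a. The cause of these changes was not tested. Replicate pairs differed by between 17.7 and 73.5 times the counting variance (chi-square per degree of freedom), so that the spread between libraries, with 3 and 4 libraries, sets the precision more than the depth does.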

Other observations

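Among genes the report does not describe, Car4, a carbonic anhydrase of colonocytes, had at most 0.891 CPM in BSHlow tumors and 70.4, 5.76 and 9.57 CPM in BSHhigh tumors a, b and c, and did not pass (log2 fold change 5.67, SE 0.95, edgeR adjusted p = 0.0535). Clca1, a goblet cell product, had 15.97, 2.84, 7.80 and 0.378 CPM against 421, 161 and 40.7 CPM (4.93, SE 1.08, edgeR adjusted p = 0.0865). Mzb1, a chaperone of plasma cells, had at most 0.384 CPM against 2.26, 1.23 and 1.57 CPM (2.92, SE 0.58, edgeR adjusted p = 0.0687). Lgr5, a stem cell marker, had 26.6, 65.7, 48.1 and 19.9 CPM against 39.8, 60.4 and 60.7 CPM, and its groups overlapped (0.41, SE 0.38, edgeR adjusted p = 0.708). These 4 genes were named after their values were seen.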
